A study of Macaca mulatta with 12 samples.

Results

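FN1 encodes fibronectin, and its row was followed across all 12 libraries of a series on cultures that the labels call cardiomyocytes, made from induced pluripotent stem cells of the rhesus macaque (Macaca mulatta). It is 1 gene of the 16745 in the authors' deposited table, and it was chosen by its values in these 12 libraries, deposited level and rank alike. Its level, rank and differences between groups are therefore a description, with no test. The libraries form 4 groups of 3: a flat monolayer (2D) in normoxia, the monolayer after hypoxia, engineered heart tissue (EHT, a small tissue cast in 3D) in normoxia, and EHT after hypoxia. Per the labels, both formats were grown in RPMI medium with B27 supplement containing insulin, no genetic change or drug is named, and hypoxia meant 24 hours in an anaerobic pouch followed by 24 hours after fresh medium. The same protocol text stands on every sample, so when RNA was taken is not given and low oxygen and the change of medium cannot be told apart. The labels do not say whether the 3 libraries of a group came from separate differentiations, and p-values then measure only the spread between these samples.

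Fibronectin is a large secreted glycoprotein that cells assemble into fibrils at their surface. Integrin receptors, above all alpha5 with beta1, bind it and stretch it open, and the fibrils in turn serve as a scaffold for collagens, fibrillins and the latent binding proteins that store transforming growth factor beta (TGF-beta). In the heart it is made chiefly by fibroblasts, is abundant in the embryo, and is made again in scar after injury. Its transcript is spliced in several forms, and the deposited values add all of them into 1 figure per gene.

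Recovered totals ran from 4154346 to 11298841 reads per library, and the deposited library medians from 6.98 to 8.75 on the log2 scale. Because those medians differ, the values were also centred, that is, each library's median over the 12084 genes tested was subtracted. The labelled cell type was checked against markers. A list of 12 cardiomyocyte genes held 0.0493 to 0.370% of reads in monolayers in normoxia, 0.555 to 0.614% in monolayers after hypoxia, 0.00214 to 0.0179% in EHT in normoxia and 0.00296 to 0.0810% in EHT after hypoxia, with no member at 0 in every library of a group. The 10 measured fibroblast markers, which include the collagens COL1A1 and COL3A1, held 3.34 to 7.06%, 4.40 to 4.92%, 5.21 to 6.34% and 5.15 to 6.82% in the same order. Smooth muscle markers (7) held 0.136 to 0.657% over all libraries, highest in monolayers after hypoxia. Epicardial (6), endothelial (7) and hepatic (7) markers held at most 0.0220%, 0.0421% and 0.0512%, and 5 of the hepatic genes were at 0 in EHT in normoxia. The cardiomyocyte genes thus took less than 1% of reads in every library, and the EHT libraries lay far below the monolayers after hypoxia. EHT replicate 3 had the lowest cardiomyocyte share of its group in both oxygen conditions, and values without both of these libraries are given where they differ. Monolayer normoxia replicate 3 was likewise the lowest of its group, at 0.0493% against 0.259 and 0.370% in replicates 1 and 2. It was left out only in the fits without 1 library. These are bulk samples, in which fewer cells of a type and less RNA per cell cannot be told apart.

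FN1 took more reads than any other gene in 10 of the 12 libraries. In monolayers in normoxia it held 3.38, 2.01 and 1.32% of all reads in replicates 1, 2 and 3. In monolayers after hypoxia it held 9.90, 10.4 and 11.0%. In EHT it held 7.51, 8.04 and 4.11% in normoxia and 4.41, 5.45 and 6.73% after hypoxia. Monolayers in normoxia were low and monolayers after hypoxia high, with no overlap between them, while the EHT groups lay between and overlapped each other. The group means were 2.24 ± 1.05% (SD, n = 3) and 10.4 ± 0.529% for monolayers in normoxia and hypoxia, and 6.55 ± 2.13% and 5.53 ± 1.16% for EHT in normoxia and hypoxia. The counts behind these shares, 104289 to 1059965 FN1 reads per library, give 95% Wilson intervals no wider than 0.0253 percentage points to either side, so the spread within groups is far larger than the counting error. Reads are not independent molecules, and such intervals cover counting error only.

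On the deposited scale, FN1 read 17.39, 16.84 and 17.45 in monolayers in normoxia and 19.27, 19.75 and 20.20 after hypoxia. In EHT it read 19.09, 18.64 and 17.64 in normoxia and 18.10, 18.38 and 19.53 after hypoxia. The lowest value in the table, which marks 0 reads, is 3.00, so FN1 sat near the top of the scale throughout. After centring, the group means were 9.30 ± 0.64, 12.36 ± 0.11, 11.26 ± 0.63 and 11.33 ± 0.39 log2 units above the library median, in the order monolayer normoxia, monolayer hypoxia, EHT normoxia and EHT hypoxia.

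The order of the groups had fixed ends and an unsettled middle. Monolayer normoxia was lowest and monolayer hypoxia highest on all 3 scales. The EHT groups exchanged places with the scale: normoxia was the higher by share of reads, hypoxia by the centred and the deposited values, and their libraries overlapped on each. Every library of monolayer normoxia lay below every EHT library on each scale. EHT after hypoxia lay below monolayers after hypoxia without overlap by share of reads and centred value, but overlapped it on the deposited values, where EHT hypoxia replicate 3 (19.53) exceeded monolayer hypoxia replicate 1 (19.27).

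**Figure D1:**
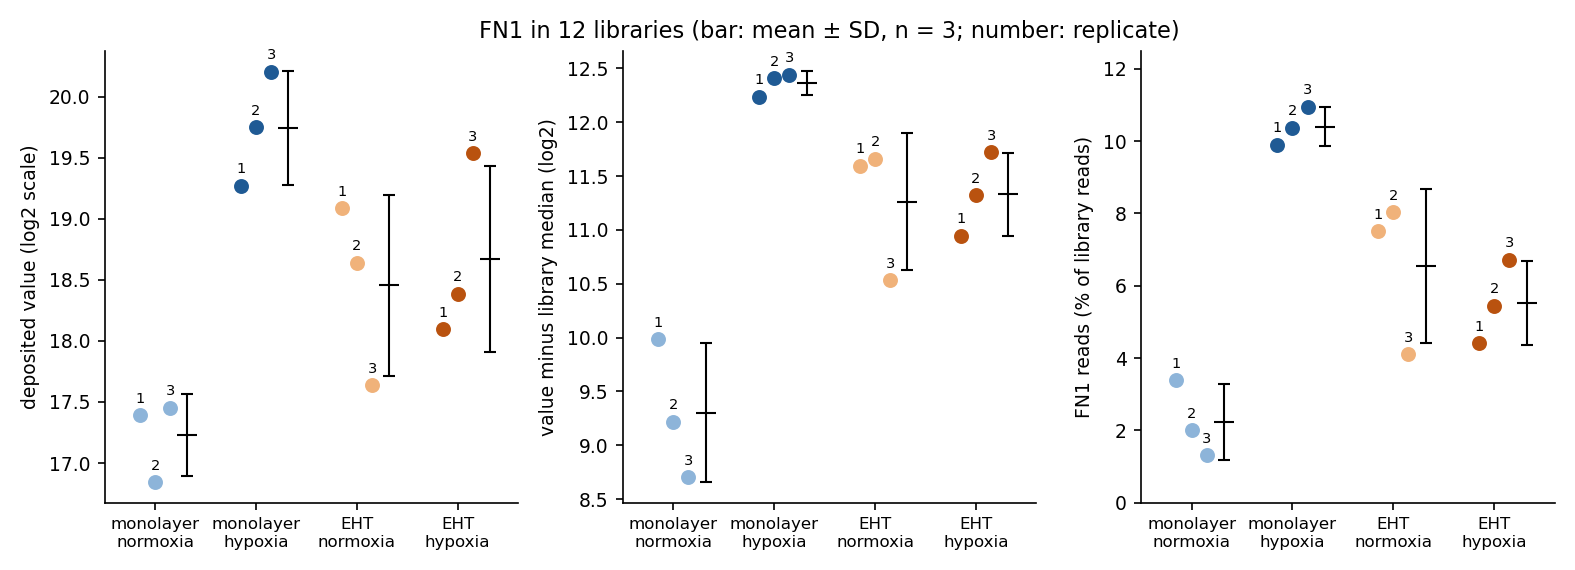
FN1 in each of the 12 libraries, as the deposited log2 value (left), the value minus the library median (centre, log2) and the percent of library reads (right, axis from 0). Points are libraries, numbered by replicate, and the bar beside them is the group mean ± SD (n = 3). Monolayers in normoxia lie lowest and monolayers after hypoxia highest in each panel, at 2.24% and 10.4% of reads on average.

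In 2 monolayer libraries in normoxia FN1 did not rank first. COL3A1, the chain of type III collagen, had more reads in replicate 2, and both COL3A1 and COL1A1, a chain of type I collagen, had more in replicate 3, which put FN1 at rank 2 and rank 3. Ranks are by reads and not per transcript length, so they say which gene filled the library and not which had the most molecules. Set against COL3A1 within a library, FN1 had 1.85, 0.734 and 0.305 reads per COL3A1 read in monolayers in normoxia and 4.75, 4.97 and 5.81 after hypoxia. In EHT the ratio was 3.96, 3.64 and 2.24 in normoxia and 1.17, 1.70 and 3.76 after hypoxia. The ratio does not depend on how libraries are scaled. It was higher in every hypoxic monolayer than in any other library, and it spread widely in EHT after hypoxia.

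Against COL1A1 the picture in EHT was flatter. FN1 had 2.09, 2.21 and 1.51 reads per COL1A1 read in EHT in normoxia and 1.98, 2.21 and 2.34 after hypoxia. In monolayers the ratio was 3.17, 1.52 and 0.799 in normoxia and 3.93, 5.13 and 4.95 after hypoxia. The hypoxic monolayers were again above all other libraries in this ratio. Against SPARC, a collagen-binding matricellular protein, the mean ratio was 4.76 ± 2.33 and 8.74 ± 0.668 in monolayers in normoxia and hypoxia, and 6.68 ± 1.68 and 6.02 ± 0.836 in EHT. Against TNC, tenascin-C, which binds fibronectin and loosens adhesion to it, the mean ratio was 14.2 and 14.5 in the monolayers but 77.1 and 89.5 in EHT. For THBS1, thrombospondin-1, it was 21.2 and 62.3 in the monolayers, and 18.3 and 24.0 in EHT. For COL6A3, a type VI collagen chain, it was 3.38 and 11.5, and 23.1 and 5.44. For IGFBP3, a growth factor binding protein, it was 6.58 and 9.11, and 53.4 and 7.25. With COL6A3 and IGFBP3 the highest mean was thus in EHT in normoxia.

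**Figure D2:**
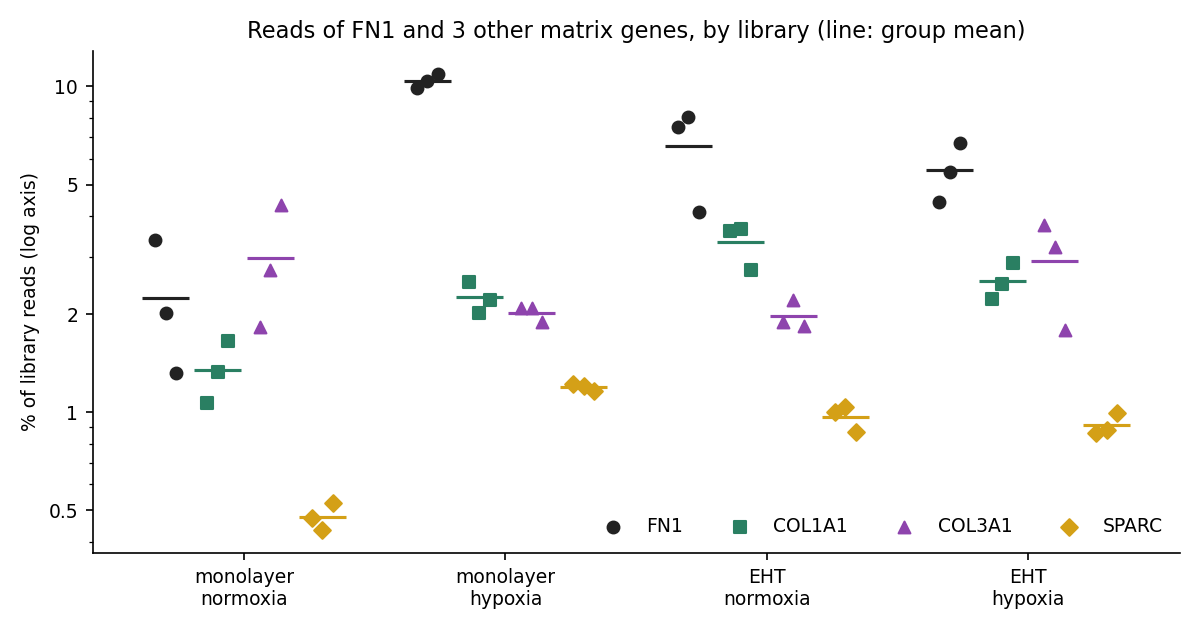
Reads of FN1, COL1A1, COL3A1 and SPARC as percent of library reads, on a log axis, for each library in 4 groups (lines are group means, n = 3). FN1 is above the other genes in every library except monolayer normoxia replicates 2 and 3, where COL3A1 is above it, and COL1A1 too in replicate 3.

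As estimates from the fit over all genes, centred FN1 was higher after hypoxia in monolayers by 3.06 ± 0.48 (log2, SE), a fold of 8.34, which placed it at rank 52 from the highest of 12084 genes. By share of reads the ratio of the same group means was 4.65, and on log2 RPM (reads scaled to the same library total, with a pseudocount of 1) the difference was 2.32, so the size rests on the scaling. In EHT the difference with hypoxia was 0.07 ± 0.48, and it turned to -0.21 on RPM and to -0.49 without both EHT libraries numbered 3. EHT exceeded monolayer by 1.96 ± 0.48 in normoxia (1.23 on the deposited values) and lay below it by a difference of -1.03 ± 0.48 in hypoxia. The difference between the hypoxia effects (EHT minus monolayer) was -3.00 ± 0.69 on the centred and -2.29 on the deposited values. These comparisons share groups, the monolayers in normoxia serving both as the control for hypoxia and as the reference for EHT.

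Within groups, FN1 was among the more variable genes in both normoxia groups on the centred values. This rests on the scale. On the deposited values its SD was 0.34 and 0.47 in monolayers in normoxia and hypoxia, and 0.74 and 0.76 in EHT. The SD of FN1 over the 3 centred values exceeded that of 91.3% of tested genes in monolayers in normoxia and 91.1% in EHT in normoxia. After hypoxia the figures were 28.9% in monolayers and 59.0% in EHT. The libraries of a group also differed in other cell markers. In monolayers in normoxia, 5 epithelial markers (EPCAM, CDH1, KRT5, KRT18 and CLDN4) held 0.472, 0.115 and 0.0865% of reads in replicates 1, 2 and 3. The fibroblast markers held 3.34, 4.69 and 7.06% in the same order. The library with the most epithelial reads had the highest FN1 share and the one with the most fibroblast reads the lowest. In the latter, replicate 3, COL3A1 alone held 4.33% of reads. On the deposited values replicate 3 instead had the highest FN1 of its group, at 17.45. Its library median on that scale was 8.75, against 7.41 and 7.63 in replicates 1 and 2. The scaling of the deposited table, relative to median-of-ratios factors of the reads, was 0.412 for replicate 3, against 1.12 and 0.94. The part of either marker group in the FN1 level was not tested. The epithelial share was at most 0.00730% in the other 9 libraries.

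Genes that meet fibronectin were read from lists. Across all 12084 genes, called means an adjusted p below 0.05 by limma with Benjamini-Hochberg adjustment on centred values. After hypoxia in monolayers 3362 genes were called higher (27.8%) and 2253 lower (18.6%). For EHT against monolayer in normoxia 2750 (22.8%) and 2234 (18.5%) were called, and in hypoxia 2227 (18.4%) and 2375 (19.7%). After hypoxia in EHT 2360 (19.5%) and 1932 (16.0%) were called. In the interaction, the hypoxia effect in EHT minus that in monolayer, 1248 (10.3%) and 1708 (14.1%) were called. The share of genes whose groups did not overlap was 35.2% upward and 26.8% downward with hypoxia in monolayers, and 23.6% and 19.9% in EHT. Between EHT and monolayer it was 31.1% and 24.4% in normoxia, and 24.4% and 26.4% in hypoxia. The direction of many calls depends on the scaling. On the deposited values the higher and lower counts after hypoxia in monolayers were 535 and 2410, and on log2(RPM + 1) they were 1139 and 6089. For EHT against monolayer in normoxia they were 325 and 3099, and 1332 and 4417. For EHT against monolayer in hypoxia they were 607 and 946, and 2634 and 2068. After hypoxia in EHT they were 858 and 270, and 1609 and 3043, and for the interaction 1147 and 102, and 3133 and 716. Centring moved the difference of a gene by 0.74 for EHT against monolayer in normoxia and by 0.55 after hypoxia in monolayers, relative to the deposited values. On the deposited values the fit gave all genes an SE of 0.46 to 0.60 for a comparison of groups, against 0.101 to 1.80 after centring, so a call can be lost there at a like difference. List counts below are on centred values, followed in parentheses by those on the deposited values and on RPM.

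Of 10 listed receptors 8 were measured and all passed the filter on low values. The beta1 and beta3 integrin genes (ITGB1, ITGB3), the usual partners of alpha5 and alphaV, were not analysed here. After hypoxia in monolayers 4 of 8 were called higher and 1 lower (1 and 1; 2 and 1), with a median difference of 0.75 against 0.07 over all genes. ITGA4, the alpha4 chain that binds an alternatively spliced segment of fibronectin, rose by 2.48 ± 0.47 (limma adjusted p = 0.000884). SDC4, syndecan-4, a heparan sulphate co-receptor, rose by 1.45 ± 0.17 in monolayers and by 1.23 ± 0.17 in EHT. The SDC4 call in monolayers was lost on the deposited values, and the EHT call was kept there. ITGB6, an epithelial partner of alphaV, fell by 3.47 ± 0.62 in monolayers, beside the lower epithelial share after hypoxia. With hypoxia in EHT 1 receptor was called higher and 2 lower (2 and 0; 1 and 2), and 2 and 3 without both EHT libraries numbered 3.

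ITGA5, the alpha chain of the main fibronectin receptor, was higher in EHT than in monolayers in both oxygen conditions. Its centred values were 2.85, 2.72 and 2.95 in monolayers in normoxia and 3.23, 3.39 and 3.20 after hypoxia. In EHT they were 4.09, 3.98 and 4.59 in normoxia and 4.21, 4.35 and 4.63 after hypoxia. Every EHT library was above every monolayer library, by 1.39 ± 0.16 in normoxia (limma adjusted p = 4.1e-05) and 1.12 ± 0.16 in hypoxia (adjusted p = 0.000285). The share of all genes with every EHT library above every monolayer library was not counted. Neither call held on the deposited values, where the differences were 0.65 and 1.08. With hypoxia in monolayers ITGA5 was also called higher, by 0.44 ± 0.16 (adjusted p = 0.0435), a call that was lost in 8 of the 12 fits without 1 library and whose sign turned on the deposited values (-0.11) and on RPM (-0.30). FN1 shared the higher level in EHT in normoxia but not in hypoxia. For EHT against monolayer the receptors were called 2 higher and 2 lower in normoxia (1 and 2; 2 and 2) and 1 higher and 3 lower in hypoxia (0 and 2; 1 and 3). Without both EHT libraries numbered 3, the normoxia count became 6 and 2. ITGB5, the beta5 chain, was higher in EHT in normoxia by 2.42 ± 0.24 and fell in EHT with hypoxia by 1.16 ± 0.24, the latter not called on the deposited values (-1.01).

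The matrix partners are proteins that bind fibronectin or are laid down on its fibrils. Of 24 listed, 23 were measured and passed the filter. After hypoxia in monolayers 19 were called higher and 1 lower (7 and 0; 13 and 1), with a median of 1.49 against 0.07 for all genes. In EHT 8 were called higher and 3 lower with hypoxia (4 and 0; 5 and 3), with a median of 0.21 against 0.03. Without EHT normoxia replicate 2 these counts were 6 and 1. Between the formats in normoxia, 12 were called higher in EHT and 4 lower (4 and 4; 10 and 4), with a median of 0.66 against 0.07, and 8 and 8 after quantile normalization. In hypoxia 4 were called higher and 5 lower (0 and 3; 4 and 5), with a median of -0.16 against -0.02. In the interaction 2 were called higher and 12 lower (1 and 4; 3 and 7), with a median of -1.07 against -0.08.

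TNC was the partner nearest to FN1 in its difference with hypoxia in monolayers. Its centred values were 6.27, 5.78 and 4.49 in monolayers in normoxia and 8.41, 8.61 and 8.48 after hypoxia. In EHT they were 4.96, 5.32 and 4.89 in normoxia and 4.58, 4.87 and 5.11 after hypoxia. TNC rose in monolayers by 2.99 ± 0.34 (limma adjusted p = 2.1e-05), and in EHT the difference was -0.20 ± 0.34. It was lower in EHT than in monolayers after hypoxia by a difference of -3.65 ± 0.34 (adjusted p = 1.3e-05), a larger gap than the -1.03 of FN1. Its level in EHT was thus below the hypoxic monolayers in every library.

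SPARC had centred values of 7.15, 7.004 and 7.38 in monolayers in normoxia and 9.21, 9.30 and 9.20 after hypoxia. In EHT its values were 8.69, 8.70 and 8.29 in normoxia and 8.59, 8.70 and 8.96 after hypoxia. The order of its groups was that of FN1: lowest in monolayers in normoxia, highest after hypoxia there, and between these in EHT. It rose by 2.06 ± 0.22 with hypoxia in monolayers (not called after quantile normalization, adjusted p = 0.0843) and was higher in EHT in normoxia by 1.38 ± 0.22 (not called on the deposited values), and its difference with hypoxia in EHT was 0.19 ± 0.22. LTBP1, a latent TGF-beta binding protein that fibronectin fibrils anchor, rose by 1.22 ± 0.20 with hypoxia in monolayers (not called on the deposited values), with a difference of 0.09 ± 0.20 in EHT.

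LTBP2, a relative of LTBP1 on fibrillin fibres, had a wider range. Its centred values were -1.37, -2.35 and -2.62 in monolayers in normoxia and 1.66, 1.63 and 1.53 after hypoxia. In EHT they were 3.69, 3.59 and 3.29 in normoxia and 2.29, 2.36 and 2.46 after hypoxia. The 4 groups did not overlap, and the share of all genes with such a separation was not counted. LTBP2 rose with hypoxia in monolayers by 3.72 ± 0.25 and was higher in EHT in normoxia by 5.64 ± 0.25. In EHT it fell with hypoxia by 1.15 ± 0.25, a call that was lost on the deposited values (-1.001).

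Of the measured fibrillar collagen genes, COL1A1, COL5A1 and COL5A2 were called higher with hypoxia in monolayers and COL3A1 was not. With hypoxia in EHT COL5A1 and COL5A2 were called higher, and COL1A1 and COL3A1 were not called. The genes were not tested against each other. COL1A1 rose by 1.49 ± 0.32 with hypoxia in monolayers (limma adjusted p = 0.00228) and was higher in EHT in normoxia by 1.68 ± 0.32 (adjusted p = 0.00137). Both calls were lost on the deposited values (0.94 each), and the first also on RPM (0.76, adjusted p = 0.0586). Its difference with hypoxia in EHT was -0.12 ± 0.32. For COL3A1 the difference with hypoxia was 0.27 ± 0.39 in monolayers (adjusted p = 0.606), with a sign that turned on the deposited values (-0.28) and on RPM (-0.47), and 0.77 ± 0.39 in EHT (adjusted p = 0.144). IGFBP3, an insulin-like growth factor binding protein that also binds fibronectin, rose with hypoxia in both formats, by 2.28 ± 0.40 in monolayers and 2.94 ± 0.40 in EHT, and the monolayer call was lost after quantile normalization (adjusted p = 0.144). COL6A3, a chain of microfibrillar type VI collagen, rose by 1.98 ± 0.24 with hypoxia in EHT, where the FN1 difference was 0.07.

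**Figure D3:**
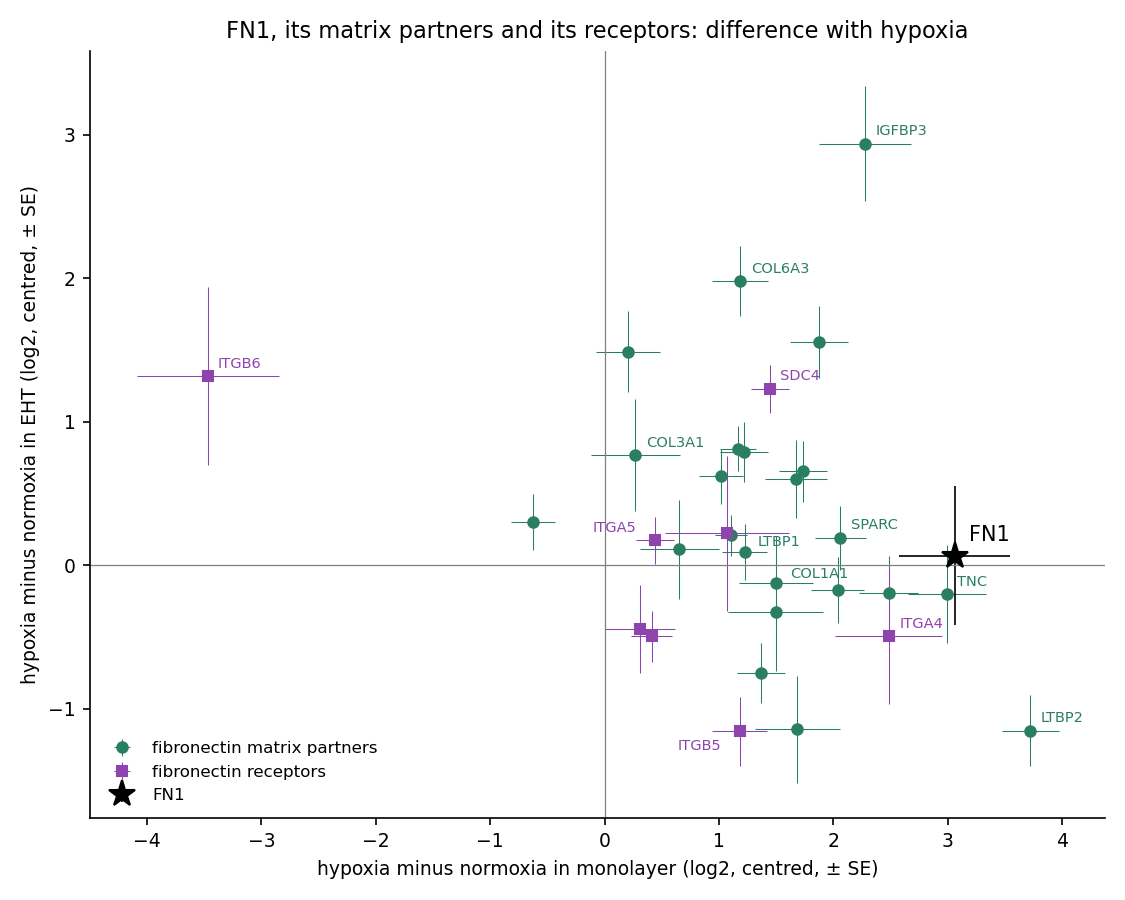
Difference with hypoxia in monolayers (x) against that in EHT (y), centred log2 ± SE, for FN1 (star), its 23 measured matrix partners (circles) and its 8 measured receptors (squares), with several of them labelled. FN1 lies at 3.06 and 0.07, near TNC at 2.99 and -0.20, and LTBP2 lies at 3.72 and -1.15.

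Proteases that can cut fibronectin and their inhibitors were called between the formats in both oxygen conditions, and with hypoxia in monolayers. Of 20 listed 18 passed the filter, and MMP10 and MMP11 had 0 reads. In EHT against monolayer 17 were called higher and 0 lower in normoxia (13 and 1; 15 and 0), with a median of 2.53 against 0.07. In hypoxia 11 were called higher and 0 lower (10 and 0; 12 and 0), with a median of 1.69 against -0.02. With hypoxia in monolayers 10 were called higher and 1 lower (5 and 2; 7 and 3), with a median of 1.11 against 0.07. With hypoxia in EHT 0 were called higher and 2 lower (0 and 0; 0 and 5). That last count was 0 and 1 without any 1 of the hypoxic monolayers or EHT hypoxia replicate 2, 0 and 4 without EHT hypoxia replicate 3, and 2 and 2 without both EHT libraries numbered 3. The inhibitor gene TIMP1 had centred values of 3.56, 4.48 and 3.59 in monolayers in normoxia and 6.04, 6.27 and 5.96 after hypoxia. In EHT it had 8.99, 9.18 and 7.40 in normoxia and 8.57, 8.73 and 7.64 after hypoxia. All EHT libraries exceeded all monolayers, by 4.65 ± 0.43 in normoxia and 2.23 ± 0.43 in hypoxia. How many of all genes did so was not counted.

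Among the enzymes, MMP2, a gelatinase, was higher in EHT in normoxia by 2.26 ± 0.23. MMP13, an interstitial collagenase, was higher there by 5.05 ± 0.92, with centred values of 3.44, 3.38 and 5.36 in EHT against 1.33, -2.22 and -2.06 in monolayers. FAP, a serine protease of activated fibroblasts, was higher in EHT in normoxia by 2.90 ± 0.19 and rose with hypoxia in monolayers by 3.04 ± 0.19. PLAU, the urokinase that activates plasminogen, fell by 1.70 ± 0.46 with hypoxia in monolayers and was higher in EHT in hypoxia by 2.82 ± 0.46. TIMP3, an inhibitor that stays bound to matrix, was higher in EHT in normoxia by 4.55 ± 0.29 and rose with hypoxia in monolayers by 2.14 ± 0.29.

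The integrin adhesion complex links bound fibronectin to actin, and 20 of its 22 listed genes were tested. VCL and PXN were not analysed here. In EHT against monolayer in normoxia 14 were called higher and 3 lower (0 and 3; 7 and 4), so the direction of the group turned on the deposited values. With hypoxia in monolayers 9 were called higher and 1 lower (2 and 1; 6 and 7), and that direction turned on RPM. With hypoxia in EHT 4 were called higher and 3 lower (0 and 0; 2 and 7). LIMS1, an adaptor that joins integrin-linked kinase, rose by 2.17 ± 0.14 with hypoxia in monolayers (limma adjusted p = 2.9e-07). TNS1, a tensin found at the fibrillar adhesions where fibronectin is assembled, rose there by 2.04 ± 0.19. FERMT1, the epithelial kindlin, was lower in EHT in normoxia by a difference of -3.74 ± 0.42. In hypoxia, EHT was called higher for 3 and lower for 7 (1 and 0; 4 and 7), and TGFB1I1, a focal adhesion adaptor, was lower in EHT by a difference of -1.07 ± 0.17, not called on the deposited values although the difference there was -1.11.

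TGF-beta signalling is a known inducer of FN1, and 20 genes of the pathway were tested. With hypoxia in monolayers 10 were called higher and 1 lower, with a median of 0.35 against 0.07 over all genes. This direction turned on RPM, where 3 were called higher and 7 lower, and on the deposited values the counts were 3 and 1. With hypoxia in EHT 4 were called higher and 4 lower (0 and 1; 2 and 6), which became 3 and 2 without EHT normoxia replicate 1 and 6 and 7 without both EHT libraries numbered 3. The ligand gene TGFB1 had centred values of 1.18, 1.32 and -0.06 in monolayers in normoxia and 3.58, 3.86 and 3.47 after hypoxia. Its EHT values were 2.93, 3.21 and 3.31 in normoxia and 3.13, 3.36 and 3.34 after hypoxia. It rose by 2.82 ± 0.28 with hypoxia in monolayers (limma adjusted p = 7.8e-06) and was higher in EHT in normoxia by 2.34 ± 0.28. Its difference with hypoxia in EHT was 0.13 ± 0.28. The group order of TGFB1 was that of FN1, lowest in monolayers in normoxia and highest after hypoxia there. The other ligand genes were less like FN1. Over the centred values of all libraries, Pearson r with FN1 was 0.91 for TGFB1, 0.29 for TGFB2 and -0.07 for TGFB3. For the receptor genes it was 0.14 for TGFBR1, 0.35 for TGFBR2 and -0.40 for TGFBR3. Elsewhere in the pathway it was 0.92 for LTBP3 and -0.36 for BAMBI. The share of all genes with this group order was not counted.

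TGFBI, a secreted TGF-beta-induced matrix protein, rose by 1.87 ± 0.50 with hypoxia in monolayers (not called on RPM, 1.14 with adjusted p = 0.0676, or after quantile normalization). BAMBI, a decoy receptor that dampens TGF-beta signals, fell by 2.21 ± 0.35 with hypoxia in EHT and was lower there than in monolayers in hypoxia by a difference of -3.48 ± 0.35. In EHT against monolayer the pathway was called 9 higher and 4 lower in normoxia (4 and 5; 7 and 7) and 4 higher and 5 lower in hypoxia (2 and 2; 5 and 4).

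Among 12 tested factors of the epithelial-mesenchymal transition, in which FN1 is a customary mesenchymal marker, 5 were called higher and 1 lower with hypoxia in monolayers (2 and 1; 3 and 4). With hypoxia in EHT the counts were again 5 and 1 (0 and 1; 2 and 2). They were 2 and 1 without EHT normoxia or hypoxia replicate 1, and 1 and 1 without EHT normoxia replicate 2. CDH1, the E-cadherin of epithelial junctions, had centred values of 2.68, 1.67 and 1.23 in monolayers in normoxia and -1.22, -1.38 and -2.08 after hypoxia. In EHT libraries it stood at -2.41, -3.31 and -3.70 in normoxia and -2.38, -1.24 and -2.16 after hypoxia. It fell by 3.41 ± 0.44 with hypoxia in monolayers, beside the lower epithelial share given above, in which CDH1 is itself counted. PRRX1, a mesenchymal homeobox factor, rose there by 2.71 ± 0.18 and was higher in EHT in normoxia by 2.20 ± 0.18. CDH2, the N-cadherin of cardiomyocyte junctions, fell by 1.65 ± 0.30 with hypoxia in EHT. In EHT against monolayer 4 factors were called higher and 2 lower in normoxia (1 and 2; 3 and 3), and 1 higher and 2 lower in hypoxia (0 and 1; 1 and 1). The hypoxia count was 0 and 1 without any 1 of the hypoxic monolayers, EHT normoxia replicate 2 or EHT hypoxia replicate 3.

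Exon choice in FN1 cannot be read from values per gene, but genes of factors linked to its alternative exons can. Of 12 tested, 4 were called higher and 6 lower with hypoxia in monolayers (0 and 6; 1 and 8), and 5 higher and 1 lower in EHT (0 and 0; 1 and 3). ESRP2, an epithelial splicing regulator, had centred values of 1.65, 0.89 and 0.38 in monolayers in normoxia and -3.08, -2.93 and -3.64 after hypoxia. In EHT it had -4.49, -3.43 and -4.10 in normoxia and -2.77, -2.43 and -4.01 after hypoxia, near the floor of the table. It fell by 4.19 ± 0.46 with hypoxia in monolayers, and its relative ESRP1 by 3.71 ± 0.51, again beside the lower epithelial share. SRSF5, a serine- and arginine-rich splicing factor, fell by 2.41 ± 0.17 in monolayers (limma adjusted p = 4.9e-07), and after hypoxia it was higher in EHT than in monolayers by 1.78 ± 0.17. MBNL2, a muscleblind splicing factor, rose by 1.45 ± 0.13 in monolayers, a call lost on the deposited values. In EHT against monolayer in normoxia 3 were called higher and 7 lower (0 and 7; 2 and 9). In hypoxia 3 were called higher and 1 lower (1 and 0; 4 and 0), or 2 and 0 without monolayer hypoxia replicate 1 or replicate 2.

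Hypoxia target genes rose in both formats. All 18 that passed the filter were called higher in monolayers (16 on the deposited values, 17 on RPM), with a median of 2.31 against 0.07. All 18 were called higher in EHT on each of the 3 scales, with a median of 3.02 against 0.03. NDRG1, a stress-responsive target, had centred values of 2.69, 3.97 and 4.30 in monolayers in normoxia and 8.01, 8.21 and 7.85 after hypoxia. In EHT it had 3.72, 3.28 and 3.72 in normoxia and 9.15, 9.40 and 9.42 after hypoxia. It rose by 4.37 ± 0.32 and 5.75 ± 0.32, and the FN1 differences beside these were 3.06 and 0.07. LOX, which crosslinks collagen and elastin, rose by 3.95 ± 0.38 in monolayers and 2.92 ± 0.38 in EHT. CA9, a carbonic anhydrase, rose by 6.68 ± 0.47 in EHT, where its level in normoxia was below that of monolayers by a difference of -3.34 ± 0.47. In EHT against monolayer 2 targets were called higher and 9 lower in normoxia (0 and 11; 1 and 11), and 4 higher and 6 lower in hypoxia (2 and 0; 4 and 4), the latter 3 and 3 without EHT hypoxia replicate 1.

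**Figure D4:**
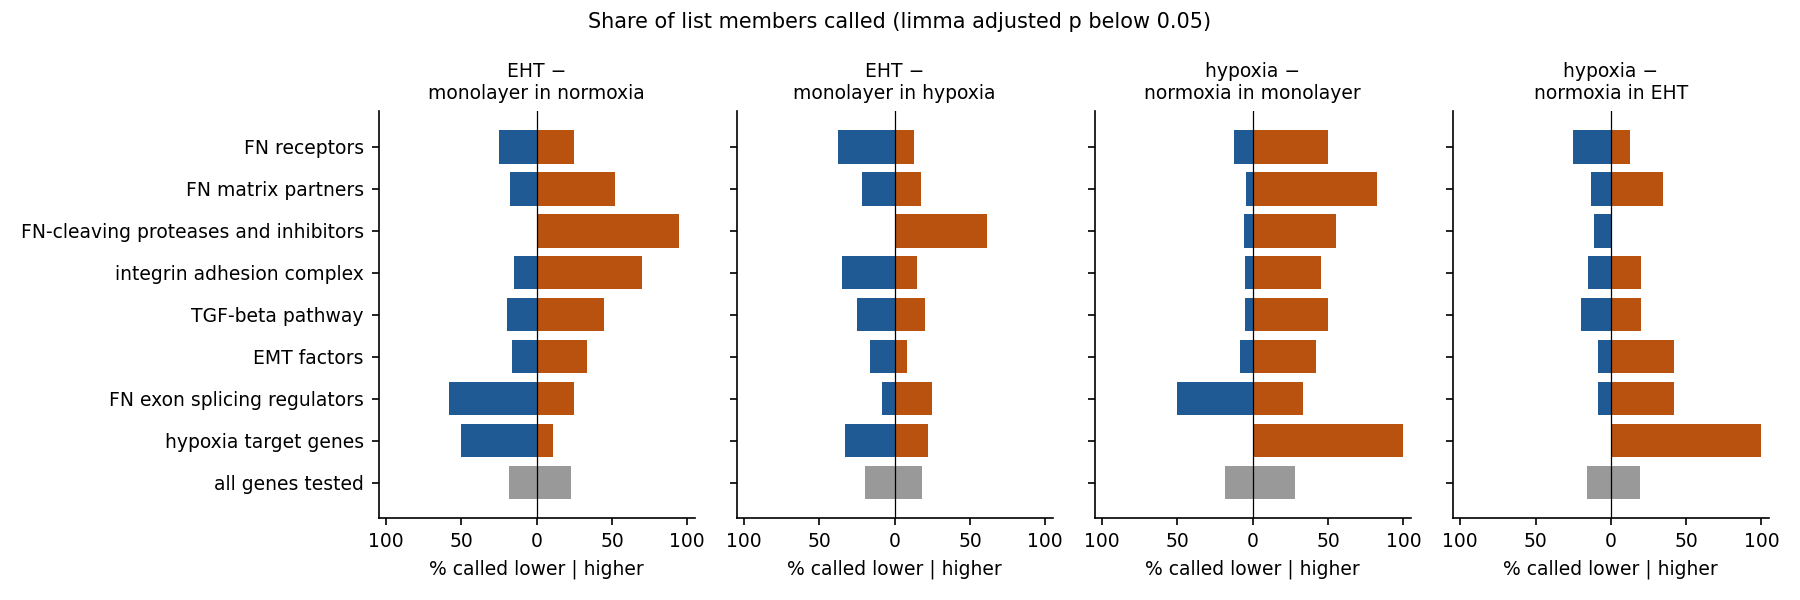
Percent of tested members of each list called higher (to the right) or lower (to the left) on centred values in 4 comparisons, with all 12084 genes in grey. The matrix partners reach 19 of 23 higher with hypoxia in monolayers, the proteases and inhibitors 17 of 18 higher in EHT in normoxia, and the hypoxia targets 18 of 18 higher with hypoxia in both formats. The balance of higher and lower calls turns with the scaling for several lists, as the counts in the text give.

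The genes whose pattern was most like that of FN1 were found by Pearson r over the 12 centred values, among the 8920 genes whose mean exceeded the table minimum by 3 log2 units or more. The libraries are shared by all genes, and r is a description. The highest were BICD2 at 0.981, PALLD at 0.978, LTBP1 at 0.975, NFAT5 at 0.972, VPS18 at 0.972, PLTP at 0.969, FNDC3B at 0.969 and JAK1 at 0.968. The median r over the 8920 genes was 0.15, and 107 genes exceeded 0.9. The ranking depends on the scale: on the deposited values r was 0.957 for PALLD and 0.934 for NFAT5 but 0.622 for BICD2, and 3 of the 8 genes were also in the top 8 there. LTBP1 was the one that also stood in a list used here, and on the deposited values its r was 0.787, at rank 99.

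PALLD, an actin-bundling scaffold of stress fibres, had centred values of 4.67, 3.70 and 3.46 in monolayers in normoxia and 6.07, 6.25 and 6.11 after hypoxia. In EHT it had 5.51, 5.37 and 4.96 in normoxia and 4.99, 5.14 and 5.26 after hypoxia. Like FN1, PALLD was lowest in monolayers in normoxia and highest in monolayers after hypoxia. On centred values replicate 3 was the lowest library of both normoxia groups for both genes. On the deposited values replicate 3, whose library median there was 8.75, had the highest FN1 of the monolayers in normoxia. Within groups, after each gene's group means were subtracted, the highest r with FN1 were 0.983 for MFSD8, 0.966 for PIGN, 0.955 for TNIK, 0.955 for BICD2 and 0.954 for NALCN. PIGN had an r of -0.20 over the uncorrected values, so genes alike within groups need not be alike between them.

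**Figure D5:**
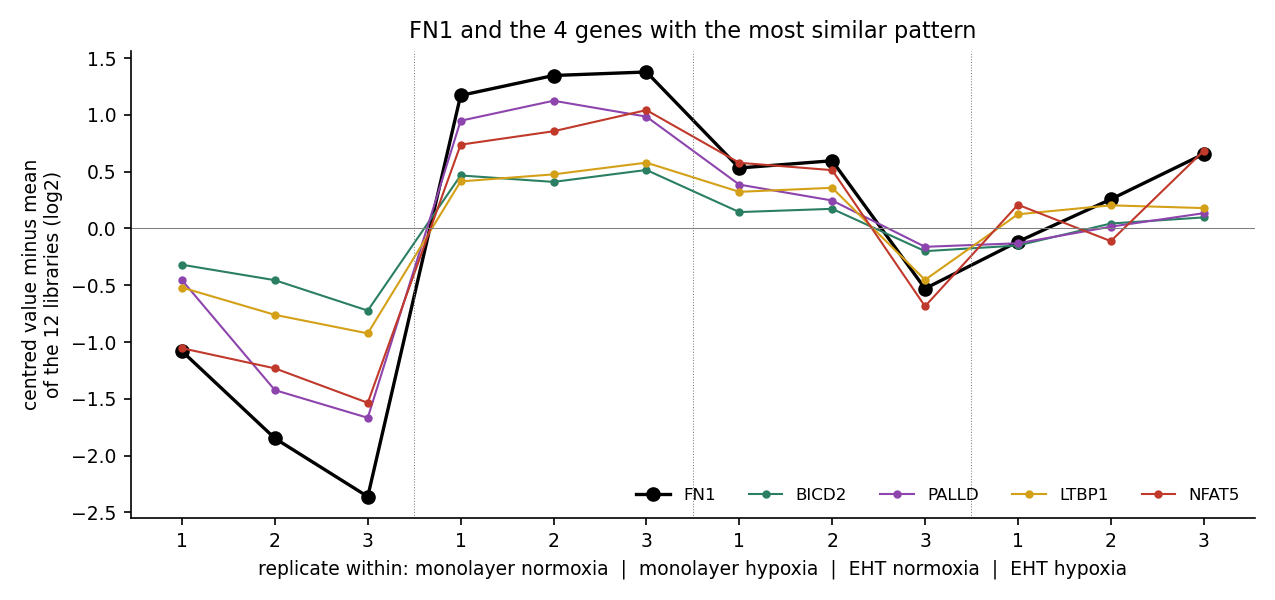
Centred values of FN1 and of the 4 genes with the highest r, each minus its own mean over the 12 libraries (log2), with libraries ordered by group and replicate. All 5 lines are lowest in monolayers in normoxia and highest in monolayers after hypoxia, with r from 0.972 to 0.981. Each of the 4 genes has a smaller range than FN1, and BICD2 and LTBP1 have the smallest.

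The nearest protein-coding genes on either side of FN1 in the RefSeq annotation of assembly T2T-MMU8v2.0 were ATIC and MREG. Non-coding genes nearby were not examined. ATIC, a purine synthesis enzyme, had a mean centred value of 1.54 and 1.66 in monolayers in normoxia and hypoxia, and 1.31 and 0.70 in EHT. MREG, on the other side, lay below the median, at -2.41, -2.63, -3.04 and -3.09. Neither was lowest in monolayers in normoxia, the group in which FN1 was lowest. The sources used here do not say whether counting used strand, so reads antisense to FN1 cannot be told from its own.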

How the data were processed

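RNA of 12 samples, 3 in each of 4 groups, was extracted with RNeasy and sequenced on the Ion Proton from Ion Total RNA-Seq v2 libraries, per the labels' protocols. Per the submitters' processing notes, HISAT2, featureCounts and DESeq2 were used; the sources used here give no versions, build or annotation. The authors deposited variance-stabilised log2 values. Inverting that transformation gave whole reads within 0.01 for 100% of values, from 4154346 to 11298841 per library. Relative to median-of-ratios factors of these reads, the scaling used in the deposited table ran from 0.412 to 1.42. Genes whose mean exceeded the table minimum by 1 log2 unit or more were kept (12084 of 16745). Each library was centred on its median, and limma 3.58.1 in R 4.3.3 was fitted with 4 group means and a variance trend, with Benjamini-Hochberg adjustment over all genes tested and a threshold of 0.05. The fit was also run on simulated counts with the same dispersion for all genes, which does not cover the spread and scaling of these libraries. Figures used matplotlib 3.10.9. FN1 was estimated in this fit with no test. Gene lists (8 pathway, 7 marker) and FN1 itself were chosen with earlier results of these data known. Named genes were, per list, comparison and direction, up to 3 called members with the largest difference, plus a few fixed receptors and collagens; the text gives some of them. Alternatives were other scalings, pseudocounts of 1 and 0.1 on RPM, filters, a replicate block, the compared groups alone, leaving out each library, and, chosen after seeing the data, leaving out both EHT libraries numbered 3. No 2 libraries of a group agreed within sampling noise. Of the 16745 symbols 15444 matched the reference names.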

Additional observations from a re-analysis of the deposited data

Results flagged for a closer look

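For 17 results the effect of hypoxia differed between EHT and monolayer by the interaction term of the limma fit on centred values (log2, EHT effect minus monolayer effect), all with a Benjamini-Hochberg adjusted p below 0.05 over 12084 genes. These genes were named mainly as called list members with large differences, so that all of them passed follows from how they were picked. Over all genes 10.3% were called higher and 14.1% lower in this term. Among receptors the term was -2.98 for ITGA4 (hypoxia effect 2.48 in monolayer and -0.50 in EHT), -2.34 for ITGB5 (1.18 and -1.16) and 4.79 for ITGB6 (-3.47 and 1.32). Among matrix partners it was -3.19 for TNC, -1.87 for SPARC, -1.13 for LTBP1 and -4.87 for LTBP2, whose effects were 3.72 and -1.15. Among proteases and inhibitors it was -3.27 for FAP and -2.84 for TIMP3. It was -2.70 for TGFB1 and -1.36 for LIMS1. Among transition factors it was 4.63 for CDH1 and -2.16 for PRRX1, and among splicing factors 5.13 for ESRP2 and 2.22 for SRSF5. Among hypoxia targets it was 4.95 for CA9 (1.73 and 6.68) and 2.82 for EGLN3 (2.24 and 5.06). The terms of ITGB5, SPARC, LTBP1, LIMS1 and PRRX1 were not called on the deposited values. That of LTBP1 was also not called on RPM (-0.67, adjusted p = 0.0580) or after quantile normalization, and that of ITGB6 was not called by voom (6.52, adjusted p = 0.0791). The epithelial marker share was 0.0865 to 0.472% in monolayers in normoxia and at most 0.00730% elsewhere. It moved with ESRP2 and ITGB6, and with CDH1, which is itself counted in that share. Its part in their terms was not tested.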

How the results depend on the processing

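The FN1 difference kept its sign under every alternative for hypoxia in monolayers and for EHT against monolayer in normoxia. For EHT against monolayer in normoxia it was 1.23 on the deposited values and 0.97 after quantile normalization, and with hypoxia in monolayers 2.51, 0.97 and, on RPM with either pseudocount, 2.32. Quantile normalization gives the same value to whichever gene ranks first, and FN1 ranked first in every library outside monolayers in normoxia. It therefore gave 0.00 for EHT against monolayer in hypoxia and for hypoxia in EHT. The other quantile values, 0.97 for both comparisons with monolayers in normoxia and -0.97 for the interaction, rest only on the ranks of FN1 in that group. They do not measure the size of a difference. With hypoxia in EHT the small positive difference on centred values turned to -0.21 on RPM (both pseudocounts) and to -0.49 without both EHT libraries numbered 3. It turned to -0.30 without EHT normoxia replicate 3 and to -0.13 without EHT hypoxia replicate 3. The FN1 interaction was -2.29 on the deposited values, -0.97 after quantile normalization and -3.55 without both EHT libraries numbered 3. Leaving out each library in turn gave 1.66 to 2.33 for EHT against monolayer in normoxia, -1.23 to -0.84 in hypoxia, 2.76 to 3.40 for hypoxia in monolayers, -0.30 to 0.26 in EHT and -3.36 to -2.70 for the interaction. Genes called numbered 3930 to 5902, 3401 to 4683, 4472 to 6489, 3287 to 5317 and 2096 to 4076 in the same order. On the deposited values they numbered 1553 for EHT against monolayer in hypoxia, 2945 for hypoxia in monolayers, 1128 in EHT and 1249 for the interaction.

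Of 100 gene differences examined, 21 lost their call on the deposited values, 10 after quantile normalization and 6 on RPM. On the deposited values these were ITGA5 in both oxygen conditions, COL1A1, SPARC, LTBP1, LIMS1 and ADM in EHT in normoxia, TGFB1I1 and NDRG1 in EHT in hypoxia, SDC4, ITGB5, LTBP1, COL1A1 and MBNL2 with hypoxia in monolayers, ITGB5 and LTBP2 in EHT, and 5 interaction terms. ITGA5 with hypoxia in monolayers turned to -0.11 on the deposited values, -0.11 after quantile normalization and -0.30 on RPM (both pseudocounts), lost its call with median-of-ratios scaling (0.35), by voom (0.35) and with no filter (0.44), and ranged from 0.38 to 0.49 leaving out each library. The other signs that turned were of differences not called on centred values. COL3A1 with hypoxia in monolayers went to -0.28 on the deposited values, -1.15 after quantile normalization (adjusted p = 0.0331), -0.47 on RPM and, leaving out each library, ranged from -0.045 to 0.62, negative without monolayer normoxia replicate 1. COL3A1 for EHT against monolayer in normoxia ranged from -0.45 to 0.21, positive without monolayer normoxia replicate 3, and gained a call after quantile normalization (-1.32, adjusted p = 0.0175). SPARC for EHT against monolayer in hypoxia gained one after quantile normalization (-0.76), by voom (-0.52) and without both EHT replicates 3 (-0.59). COL1A1 with hypoxia in EHT went to 0.030 on the deposited values and ranged from -0.31 to 0.0041, positive without EHT hypoxia replicate 1. For EHT against monolayer in hypoxia it went to -0.17 after quantile normalization and ranged from -0.079 to 0.19, negative without EHT hypoxia replicate 3, and was -0.079 without both EHT replicates 3. With hypoxia in EHT, quantile normalization gave -0.60 for SPARC, -0.11 for LTBP1 and -0.15 for TGFB1, and RPM -0.081, -0.18 and -0.14. Without both EHT replicates 3 the values were -0.049 for SPARC and -0.18 for LTBP1, which ranged from -0.17 (without EHT normoxia replicate 3) to 0.23. The cause of these turns was not tested.

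With the replicate block the FN1 differences were the same and their SE was 0.56 in place of 0.48. Genes called were 5574 in place of 5615 for hypoxia in monolayers, and 1 of 40 list counts moved. Same-numbered libraries correlated at -0.10 to 0.33 in their deviations from group means, and no pair of groups had every r over 0.1, so the numbers were not taken as a pairing. List counts moved by over 1.5 times in 29 of 40 cases on the deposited values, 10 after quantile normalization, 5 on RPM and 19 of 480 when 1 library was left out. A rank by reads per coding length was not run, as no lengths were at hand. Depth does not limit FN1, but ESRP1 had 0 reads in all EHT libraries in normoxia.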
